A study of Homo sapiens with 12 samples.

Results

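The ErbB receptor family and its ligands were examined in MDA-MB-231 cells after the long noncoding RNA CYTOR (LINC00152) was lowered. The 10 genes were 3 receptors (EGFR, ERBB2 and ERBB3), 5 ligands (TGFA, HBEGF, AREG, EREG and NRG1) and 2 inhibitors of the receptors (ERRFI1 and LRIG1). Every probe annotated to one of them was taken, whatever its value, which gave 24 of the 47323 probes with values, for 9 of the 10 genes. AREG had no named probe in the annotation used here and was not analysed. The probes fell to 4 for EGFR, 3 for ERBB2, 3 for ERBB3, 2 for TGFA, 1 for HBEGF, 1 for EREG, 7 for NRG1, 1 for ERRFI1 and 2 for LRIG1.

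MDA-MB-231 is an established human breast cancer line of the triple-negative type. One group of 6 samples received a CYTOR LNA and the other group of 6 a control LNA, both at 30 nM for 24 h with a lipid reagent, in cells kept in medium with 10% serum. These LNA gapmers are antisense oligonucleotides with locked nucleic acid ends that lead RNase H to cut the RNA they pair with. Neither group carried another labelled agent or allele, and the labels name a single LNA against CYTOR, with no second sequence. Each sample was measured on 1 bead array. The labels place the arrays in 2 batches without saying what a batch was, 1 CYTOR LNA and 3 control arrays in batch 1 and 5 and 3 in batch 2. They do not say that replicates were separate cultures, and a p-value here reflects the scatter among 12 samples, possibly of technical origin alone.

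ErbB receptors are tyrosine kinases of the cell surface that pair up when a ligand binds and then signal through adaptor proteins to the MAP kinase and PI3 kinase pathways. TGFA, HBEGF, AREG and EREG bind EGFR, some of them ERBB4 as well, whereas NRG1 binds ERBB3 and ERBB4, and ERBB2 has no ligand of its own and acts as the partner of the others. Most ligands are made as membrane-anchored precursors that metalloproteases such as ADAM10 and ADAM17 cut free. MDA-MB-231 cells are known for high EGFR and for autocrine EGFR ligands, without the ERBB2 amplification that defines another class of breast cancer.

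The target and the cell type were checked first. CYTOR at its brightest probe, ILMN_3220934, was 2.15-fold lower after its LNA (difference of log2 values -1.10, SE 0.058, exact permutation p = 0.0022, the smallest that 6 against 6 arrays can give, and 0.0045, again the smallest possible, when arrays were exchanged within batches alone). CYTOR was 1.59-fold lower at ILMN_3230508 and 1.09-fold lower at ILMN_3230572, where the groups overlapped. The median array value was 6.53, so probes near it cannot be told from background by level. After the CYTOR LNA, ILMN_3220934 averaged 6.74, close to that median, so its fold may understate the loss of CYTOR. Of 9 mesenchymal markers of the line, 6 lay at least 1 log2 unit above the array median, among them VIM and CD44. SPARC, FN1 and ZEB1 of that list lay near it. Of 10 luminal markers, 3 lay at least 1 log2 unit above it (EPCAM, KRT8 and KRT18). ESR1, PGR, GATA3, FOXA1, ERBB3 and CDH1 of that list lay near the median, and KRT19 lay 0.85 above it. None of 6 fibroblast markers and 2 of the 5 leukocyte markers with a probe (CD14 and CD68) lay that high, and PTPRC and CD3E were near the median. The array mean over the mesenchymal list ran from 10.00 to 10.16 after the CYTOR LNA and from 10.01 to 10.12 in controls. The luminal list ran from 7.10 to 7.16 and from 7.07 to 7.14. The fibroblast list ran from 6.49 to 6.58 and from 6.51 to 6.57, and the leukocyte list from 7.67 to 7.78 and from 7.59 to 7.76. Single markers moved in both directions: CD44 fell by 0.21, while KRT18 rose by 0.21 and CD14 by 0.33, and their part in the ErbB values was not tested. In these bulk samples fewer cells with a transcript and less of it per cell cannot be told apart.

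Of the 24 ErbB probes, 16 passed the brightness filter and were tested, and 4 of them fell, at EGFR, at both TGFA probes and at NRG1. Of all tested probes, 4.11% fell (limma, adjusted p below 0.05). None of the 16 rose, against 2.12% of all tested probes, and none was higher at an unadjusted p below 0.05 either, where 9.63% of all tested probes were. At that level 7 of the 16 were lower, beside 9.35% of all tested probes. The median difference over the 16 probes was -0.03, beside 0.01 over all tested probes, and 12 of 16 (75%) were negative, beside 46.4%. The falls were small, at most 1.19-fold. The member list was drawn up with earlier results of these data known, so these counts describe the family and are no test of it.

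The calls lay among the bright probes. Just 8 ErbB probes of 7 genes lay at least 1 log2 unit above the array median, and all 4 calls were among them. Of all 8896 tested probes that bright, 6.19% fell, and their median difference was 0.01, beside -0.17 for the 8. In 6 of the 8, all CYTOR LNA arrays were below all control arrays, a pattern seen in 5.45% of probes that bright and in 3.61% of all tested probes. A further 11 ErbB probes were within 0.1 of the array median and carry little information on expression. The plot of values by array shows the 10 brightest probes.

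**Figure D1:**
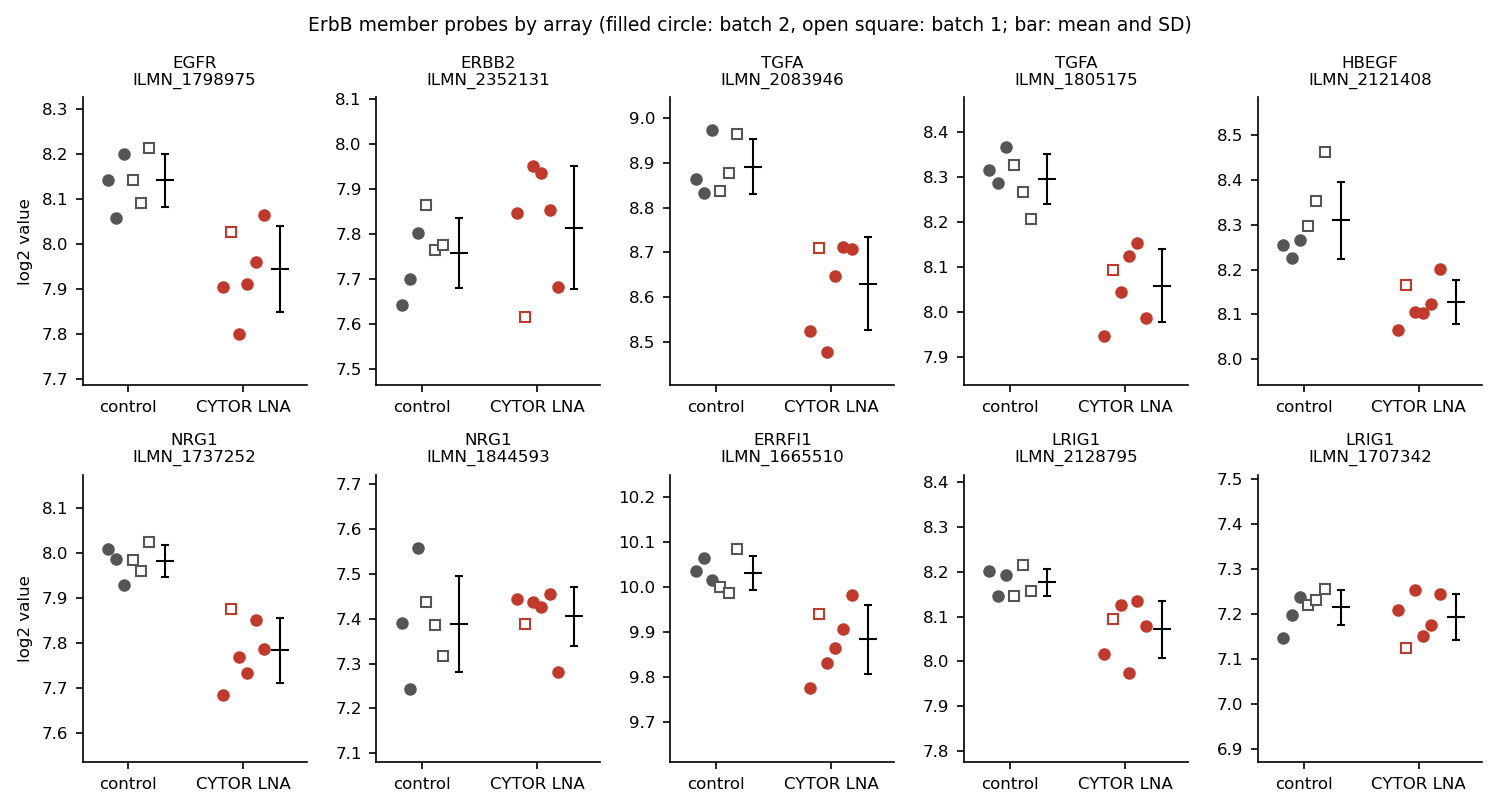
Each panel gives the log2 value of 1 probe (vertical axis, a window of the same height in each panel that does not start at 0) on the 6 control and 6 CYTOR LNA arrays, with filled circles for batch 2, open squares for batch 1, and the mean and SD beside each group. The groups are apart at both TGFA probes, HBEGF, NRG1 ILMN_1737252, ERRFI1 and LRIG1 ILMN_2128795. They overlap narrowly at EGFR and more widely at ERBB2, NRG1 ILMN_1844593 and LRIG1 ILMN_1707342.

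Among the receptors, EGFR fell. Its gene spans 193 kb at chr7:55019017-55211628 (GRCh38.p14, plus strand). The bright probe ILMN_1798975, annotated to the full-length transcript NM_005228, had a lowest, median and highest log2 level of 7.80, 7.94 and 8.06 on the CYTOR LNA arrays. On the control arrays they were 8.06, 8.14 and 8.21. Thus 5 of 6 CYTOR LNA arrays lay below the lowest control, and the remaining array was just above it. The difference was -0.18 (SE 0.053, 95% interval -0.29 to -0.07), a 1.13-fold fall with a limma adjusted p of 0.040. The exact permutation p was 0.0043 over all splits of the arrays, which leave batch aside, and 0.013 when arrays were exchanged within batches alone. It was -0.21 within batch 2 and -0.12 for the single CYTOR LNA array of batch 1. This call sat near the threshold: the adjusted p was 0.068 when all probes were tested without the brightness filter, and between 0.0503 and 0.133 without any one of CYTOR LNA replicates 1, 3, 4 and 5 or control replicates 1, 2, 3, 4 and 6. Over 25 alternatives the call was lost in 12, and the sign held in all 25.

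The other 3 EGFR probes are annotated to shorter transcripts, NM_201282 and NM_201284, which encode secreted forms of the receptor without the kinase domain. All 3 lay within 0.11 of the array median. The tested one, ILMN_1696521, had a mean of 6.59 ± 0.041 (SD, n = 6) with the CYTOR LNA and of 6.60 ± 0.036 with the control LNA, a difference of -0.01 (adjusted p = 0.86). The change at the bright probe differed from that at this one by -0.17 (95% interval -0.29 to -0.04), which missed the threshold over all probe pairs (limma adjusted p = 0.15). A change of the short transcripts was therefore not measurable at these levels.

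ERBB2, the ligandless partner and the gene amplified in HER2-positive tumours, did not pass the test. Its bright probe ILMN_2352131 had a lowest, median and highest level of 7.62, 7.85 and 7.95 after the CYTOR LNA. In controls these were 7.64, 7.77 and 7.86, so the groups overlapped throughout. The difference was 0.05 (SE 0.061, adjusted p = 0.76), and its 95% interval from -0.08 to 0.17 did not reach the -0.18 fitted for EGFR. That interval assumes the same difference in both batches, so it cannot exclude such a fall within 1 of them. The batches ran in opposite directions at this probe, 0.14 within batch 2 and -0.19 for the single array of batch 1. The group by batch difference had an unadjusted limma p of 0.007 and an adjusted p of 0.095. It was the sole one of the 16 ErbB probes with an unadjusted p below 0.05, a level that 18.3% of all tested probes reached, and none passed after adjustment, where 4.12% of all tested probes did. The other ERBB2 probes lay below the filter, at 6.43 to 6.50 in each group mean.

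ERBB3, the kinase-impaired receptor for neuregulins, was measured by 3 tested probes that all lay within 0.03 of the array median. Their differences were -0.01, 0.05 and 0.05, with adjusted p from 0.40 to 0.93. The probe with the narrowest interval, ILMN_1751346, ran from -0.01 to 0.11. ERBB3 is also a luminal marker, and at these levels no change could be resolved.

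TGFA, a ligand of EGFR, fell at both of its probes, with the smallest adjusted p-values of the 16 ErbB probes tested. The brighter, ILMN_2083946 (NM_003236), had a lowest, median and highest level of 8.48, 8.68 and 8.71 after the CYTOR LNA. The control values were 8.83, 8.87 and 8.97, with no overlap. The difference was -0.25 (SE 0.058, 95% interval -0.37 to -0.13), a 1.19-fold fall with a limma adjusted p of 0.0087. At ILMN_1805175 (NM_001099691) the CYTOR LNA arrays ran from 7.95 over a median of 8.07 to 8.16. The controls ran from 8.21 over 8.30 to 8.37, again without overlap. The difference there was -0.24 (SE 0.052), a 1.18-fold fall with an adjusted p of 0.0039. Both gave the smallest exact permutation p, 0.0022 over all splits and 0.0045 within batches, and both were larger within batch 2 (-0.27 at each) than for the single array of batch 1 (-0.18 and -0.17). The 2 probes' changes differed by 0.00 (95% interval -0.13 to 0.12). The gene lies on chromosome 2, spans 107 kb and is read from the minus strand.

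EGFR and TGFA fell together while HBEGF narrowly missed the threshold, and their promoters are shown for that reason. NRG1 fell as well, but no window was taken for it. Each line gives the 250 bases before a RefSeq transcript start (GRCh38.p14), 5′ to 3′ on the gene's strand, with GC boxes, GGGCGG on either strand (CCGCCC on the printed one when it lies on the other), in capitals. The windows are chr7:55018767-55019016 (plus) for EGFR, chr2:70553827-70554076 (minus) for TGFA and chr5:140346604-140346853 (minus) for HBEGF.
EGFR: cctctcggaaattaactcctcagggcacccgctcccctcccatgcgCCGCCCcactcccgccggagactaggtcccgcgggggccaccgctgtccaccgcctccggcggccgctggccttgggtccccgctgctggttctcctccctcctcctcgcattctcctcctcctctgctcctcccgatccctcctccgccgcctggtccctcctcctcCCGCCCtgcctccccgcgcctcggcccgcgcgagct
TGFA: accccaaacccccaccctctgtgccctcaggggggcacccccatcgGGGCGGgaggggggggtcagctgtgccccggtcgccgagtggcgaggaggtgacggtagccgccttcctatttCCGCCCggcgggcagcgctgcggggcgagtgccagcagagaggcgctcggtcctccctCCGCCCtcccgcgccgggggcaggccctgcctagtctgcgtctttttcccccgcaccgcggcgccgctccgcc
HBEGF: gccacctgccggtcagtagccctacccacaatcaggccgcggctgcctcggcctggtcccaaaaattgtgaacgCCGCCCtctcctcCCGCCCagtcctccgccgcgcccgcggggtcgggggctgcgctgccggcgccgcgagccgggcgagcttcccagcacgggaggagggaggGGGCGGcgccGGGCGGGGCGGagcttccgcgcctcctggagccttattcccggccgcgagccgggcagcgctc
The windows are 73.6%, 75.6% and 76.4% G and C and hold 2, 3 and 5 GC boxes, overlapping matches counted. Of 35116 promoter windows of that length in the RefSeq table, 42.6% hold at least 1. None of the 3 holds TATAAA or the AP-1 letters TGANTCA on either strand, which 10.7% and 6.57% of all windows hold. EGFR has a further annotated start inside the gene, at chr7:55109589-55109838, with 2 AP-1 matches, 2 TATAAA matches and no GC box. TGFA also has a further annotated start, with the window chr2:70553447-70553696, which is 64.0% G and C and holds none of the 3 motifs. These matches are descriptions of letters and say nothing on which factor was bound.

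HBEGF, the heparin-binding ligand of EGFR and ERBB4, did not pass the test although its arrays separated. The levels at its one probe, ILMN_2121408, were 8.07, 8.11 and 8.20 (lowest, median, highest) after the CYTOR LNA. In controls they were 8.23, 8.28 and 8.46. The difference was -0.15 (SE 0.050, 95% interval -0.25 to -0.05), with a limma adjusted p of 0.074. Batch 1 gave -0.20 and batch 2 gave -0.13. The batch 1 controls were the 3 highest of the 6, and without a batch term the probe passed (adjusted p = 0.016).

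EREG, epiregulin, lay within 0.04 of the array median at its single probe. Its mean was 6.55 ± 0.045 (SD, n = 6) with the CYTOR LNA and 6.59 ± 0.039 with the control LNA, and the difference of -0.03 (SE 0.032) had an adjusted p of 0.65.

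NRG1 fell at one of its 7 probes. The gene spans 1130 kb, and its transcripts differ in their first exons and in their ends. ILMN_1737252, annotated to NM_013962, had a lowest, median and highest level of 7.68, 7.78 and 7.88 after the CYTOR LNA. The control levels were 7.93, 7.99 and 8.03, without overlap. The difference was -0.18 (SE 0.047, 95% interval -0.28 to -0.09), a 1.14-fold fall with a limma adjusted p of 0.018 and an exact permutation p of 0.0022 over all splits and 0.0045 within batches. It was -0.21 within batch 2 and -0.11 for the single array of batch 1. The call was lost without control replicate 1 (adjusted p = 0.072) or control replicate 2 (0.062).

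The next brightest NRG1 probe, ILMN_1844593, annotated to AF176921, did not pass the test. Its mean was 7.41 ± 0.065 (SD, n = 6) with the CYTOR LNA and 7.39 ± 0.11 with the control LNA, a difference of 0.01 (95% interval -0.10 to 0.12, adjusted p = 0.94). The change at ILMN_1737252 differed from the change there by -0.19 (95% interval -0.34 to -0.05, limma adjusted p = 0.14). Against the dim tested probe ILMN_1811954 the difference of changes was -0.17 (adjusted p = 0.11). The remaining 4 NRG1 probes were too dim to be tested and gave -0.01 to 0.04 without the filter. Among them ILMN_2298888 is annotated to NM_013962, as ILMN_1737252 is, and gave 0.04 at a mean level of 6.46. The fall at ILMN_1737252 was therefore not seen at both probes of that transcript.

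In all, 7 pairs of tested probes within an ErbB gene were compared, and none differed after adjustment, where 3.29% of all 4495 such pairs did. At an unadjusted p below 0.05, 3 of the 7 did, the EGFR pair and both NRG1 pairs, beside 15.6% of all such pairs. When dim probes were admitted, 3 of 15 pairs passed, all of NRG1 (adjusted p = 0.017, 0.018 and 0.021), where 4.55% of all 7823 pairs did. Each was between ILMN_1737252 and a probe below the array median, in 1 case ILMN_2298888 of the same transcript (limma adjusted p = 0.018). At the level of those dim probes a change may not be measurable, and the pairs do not separate transcripts that moved from transcripts that were not detected. The plot of differences at all 24 probes sets them side by side.

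**Figure D2:**
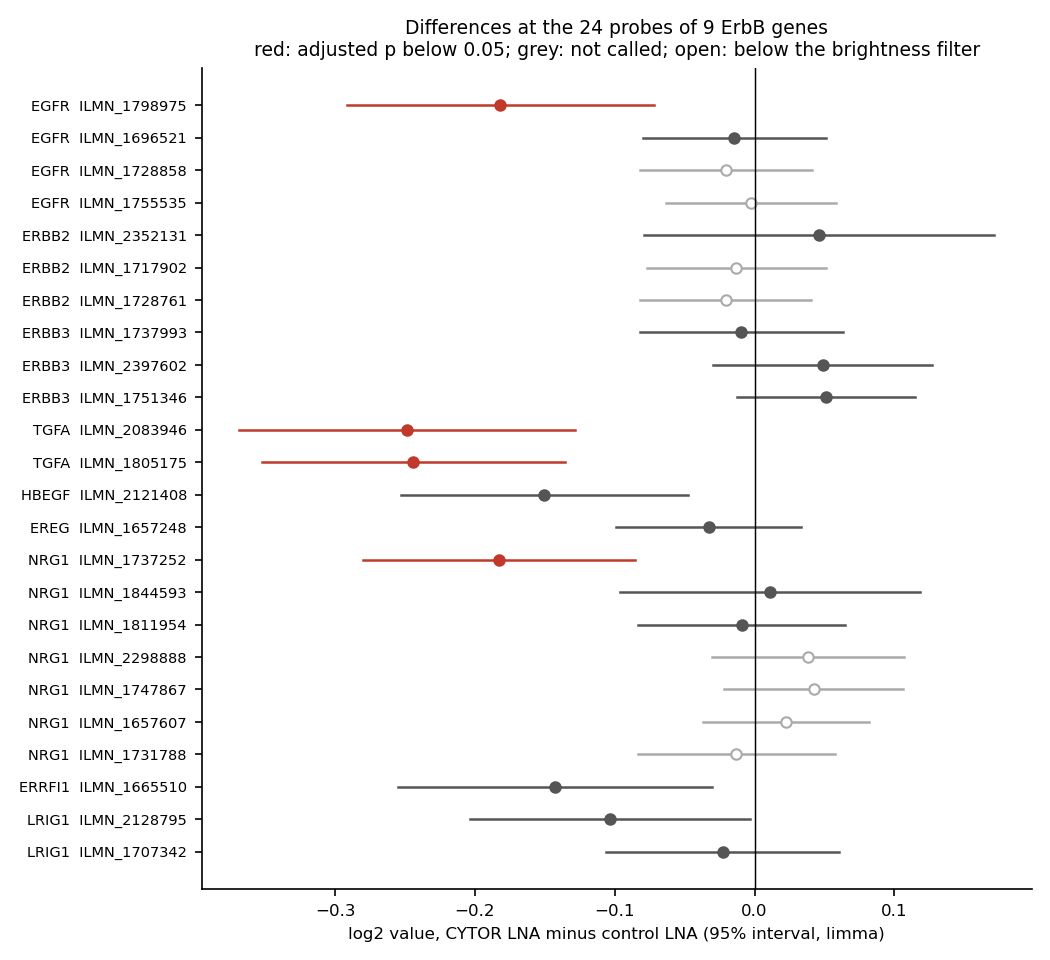
Points give the difference of log2 values, CYTOR LNA minus control LNA, at each of the 24 ErbB probes, with 95% intervals from limma (horizontal axis). The 4 called probes (red) are EGFR ILMN_1798975, both TGFA probes and NRG1 ILMN_1737252. Open points lay below the brightness filter and come from a fit to all probes.

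Both inhibitors leaned the way of the ligands without passing the test. ERRFI1 (MIG6) is a cytoplasmic protein that binds the EGFR kinase domain and blocks it, and its gene is induced by EGFR signalling. Its probe ILMN_1665510 had levels of 9.77, 9.89 and 9.98 (lowest, median, highest) after the CYTOR LNA. The controls had 9.99, 10.03 and 10.09, a separation by a narrow margin. The difference was -0.14 (SE 0.055, 95% interval -0.26 to -0.03) with an unadjusted p of 0.015 and an adjusted p of 0.14 in limma. Batch 2 gave -0.17 and the single array of batch 1 gave -0.08.

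LRIG1 is a membrane protein that promotes the ubiquitination and loss of ErbB receptors. At ILMN_2128795 its levels were 7.98, 8.09 and 8.14 after the CYTOR LNA. In controls they were 8.15, 8.17 and 8.22, so the groups did not overlap. The difference was -0.10 (SE 0.049, adjusted p = 0.25), a 1.07-fold change. The second probe, ILMN_1707342, overlapped between the groups and differed by -0.02 (SE 0.040, adjusted p = 0.83), with opposite signs in the batches, 0.01 in batch 2 and -0.11 in batch 1. The plot of differences within each batch shows all 10 brightest probes.

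The genes with a called probe were long ones, EGFR at 193 kb, TGFA at 107 kb and NRG1 at 1130 kb, where the median tested gene spans 27.2 kb. HBEGF on chromosome 5 (13.8 kb) and ERRFI1 on chromosome 1 (14.6 kb) are short. ERBB2 on chromosome 17 spans 40.6 kb, ERBB3 23.4 kb, EREG 23.6 kb and LRIG1 on chromosome 3 spans 122 kb. The part of gene length in these values was not tested.

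**Figure D3:**
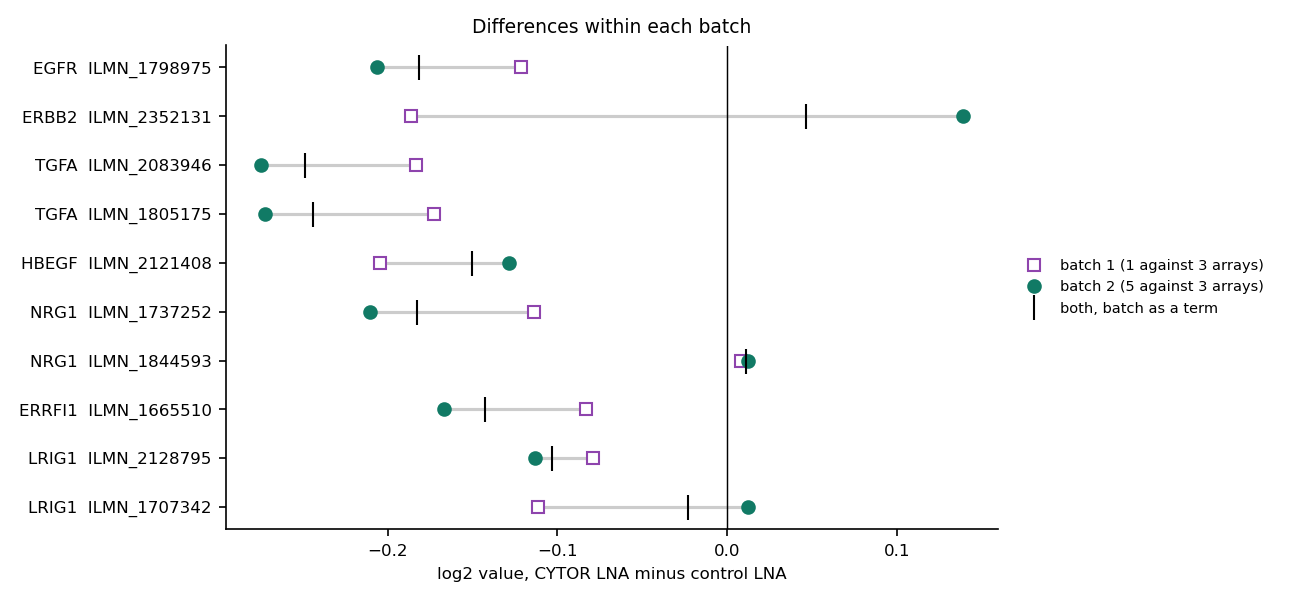
For the 10 brightest ErbB probes, the difference of log2 values, CYTOR LNA minus control LNA (horizontal axis), is given within batch 1 (open squares, 1 against 3 arrays), within batch 2 (filled circles, 5 against 3 arrays) and over both with batch as a term (bars). Both batches are below 0 at EGFR, TGFA, HBEGF, NRG1 ILMN_1737252, ERRFI1 and LRIG1 ILMN_2128795, and they lie on opposite sides of 0 at ERBB2 and LRIG1 ILMN_1707342.

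Array-to-array variation within the groups was described by correlating residuals, the values after removal of the group and batch means, over the 12 arrays, which share chips and transfections to an unknown extent. EGFR and TGFA ILMN_2083946 varied together (r = 0.85), whereas EGFR and TGFA ILMN_1805175 did not (r = 0.05), and the 2 TGFA probes reached r = 0.35. ERRFI1 followed NRG1 ILMN_1737252 (r = 0.74), TGFA ILMN_2083946 (0.70) and EGFR (0.67). Other probes of the same genes differed: ERRFI1 ran against NRG1 ILMN_1844593 (r = -0.59) and did not follow TGFA ILMN_1805175 (r = 0.09). ERBB2 ran against ERRFI1 (r = -0.64) and EGFR (r = -0.54). The pairs of ErbB probes named here include the highest and the lowest r among the brightest ErbB probes. These r values are thus extreme by selection and were not tested. The genes whose residuals were most like EGFR among 12713 were OIP5 (r = 0.94), PHOSPHO2 (0.89) and MET (0.89), a receptor tyrosine kinase outside the family. OIP5 itself fell by 0.43 (adjusted p = 1.22e-05), while PHOSPHO2 differed by 0.04 and MET by 0.13 without passing. Those most like TGFA ILMN_1805175 were DNAJC21 (r = 0.90), NBR1 (0.89) and BTF3 (0.89). Those most like NRG1 ILMN_1737252 were LOC101928596 (r = 0.93), CENPK (0.90) and NUP35 (0.90). None of these 6 passed the test, with differences from -0.10 to -0.02. The genes most like a member were picked as the highest of 12713 correlations over 12 arrays. Their r values are thus high by selection, and shared regulation was not tested.

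The wider ErbB pathway was described with 73 further genes in 5 lists, of which 64 were tested by their brightest probe. There, 7 fell, 2 rose and 55 were not called, where 5.4% of all tested genes fell and 2.49% rose. The median difference was 0.01, beside 0.00 over all tested genes, and 43.8% were negative, beside 47.9%.

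The shedding machinery held the largest falls, with 3 of 10 genes lower and 1 higher, beside 5.4% and 2.49% of all tested genes. At an unadjusted limma p below 0.05, 4 were lower and 3 higher, beside 11.4% and 10.2%. The median difference of the 10 genes was 0.04, and 40% were negative, beside 47.9% of all tested genes. NRDC, nardilysin, a peptidase that enhances the shedding of HBEGF and other ErbB ligands, had levels of 8.93, 9.08 and 9.24 (lowest, median, highest) after the CYTOR LNA. In controls they were 9.74, 9.86 and 10.02, far from overlap. The difference of -0.76 (SE 0.066, adjusted p = 1.09e-08) was a 1.69-fold fall. ADAM10, the main sheddase of EGF and betacellulin, ran from 7.32 over 7.44 to 7.48 after the CYTOR LNA. Its controls ran from 7.68 over 7.79 to 7.91, and the 1.32-fold fall (-0.40, SE 0.049, adjusted p = 2.93e-06) was matched by -0.31 at a second probe. TIMP3, an inhibitor of ADAM17 and other metalloproteases, had 7.55, 7.80 and 7.94 after the CYTOR LNA. The control values were 8.07, 8.17 and 8.35, a fall of 1.32-fold (-0.40, SE 0.065, adjusted p = 0.00016).

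ADAM17, the main sheddase of TGFA, HBEGF and AREG, did not pass. Its 3 probes gave 0.10 (adjusted p = 0.32), -0.05 (0.55) and 0.10 (0.0501). FRMD8, which stabilises the ADAM17 complex at the cell surface, rose by 0.24 (SE 0.069, adjusted p = 0.035), with overlapping groups. The iRhom genes RHBDF1 and RHBDF2, partners of ADAM17, differed by 0.18 and -0.17 (adjusted p = 0.087 and 0.14). RHBDF1 and RHBDF2 were chosen after their values were seen.

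Of 20 genes for receptor down-regulation, 3 fell and none rose, beside 5.4% and 2.49% of all tested genes. At an unadjusted p below 0.05, 5 were lower and 4 higher, where 11.4% of all tested genes were lower and 10.2% higher. EPN1, epsin 1, an endocytic adaptor, fell by 0.34 (SE 0.057, adjusted p = 0.00025). STAMBP (AMSH), a deubiquitinase of endosomes, fell by 0.23 at each of 2 probes (adjusted p = 0.0034 and 0.026). SH3KBP1 (CIN85), an adaptor that joins CBL to endocytosis of EGFR, fell by 0.21 (adjusted p = 0.024), with -0.16 (0.085) at a second probe. The groups did not overlap at the brightest probe of these 3 genes, which were picked by their calls. All CYTOR LNA arrays lay below all controls at 5.45% of tested probes at least 1 log2 unit above the array median.

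Of 18 adaptors and effectors, 1 fell, a share near the 5.4% of all tested genes, and none rose, beside 2.49%. At an unadjusted limma p below 0.05, 1 was lower and 4 were higher, beside 11.4% and 10.2% of all tested genes. The one that fell was GAB2, a scaffold that recruits PI3 kinase, by 0.19 (SE 0.044, adjusted p = 0.0099). Of 13 other inhibitors and chaperones, none fell and 1 rose, beside 5.4% and 2.49% of all tested genes. At an unadjusted limma p below 0.05, 1 was lower and 1 higher, beside 11.4% and 10.2%. GPRC5A, a membrane protein known to restrain EGFR, rose by 0.17 (SE 0.048, adjusted p = 0.035). The calls of FRMD8 and GPRC5A were lost without the brightness filter (adjusted p = 0.0504 and 0.053), and no gene of the 5 lists rose without CYTOR LNA replicate 1 or 5 or without control replicate 6. Of the other receptors and ligands, 3 were tested and none passed or reached an unadjusted p below 0.05, and EGF itself differed by 0.05 (adjusted p = 0.53) at a level near the array median. ERBB4 (group means 6.38 and 6.36) and BTC (6.53 and 6.49) lay below the filter.

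**Figure D4:**
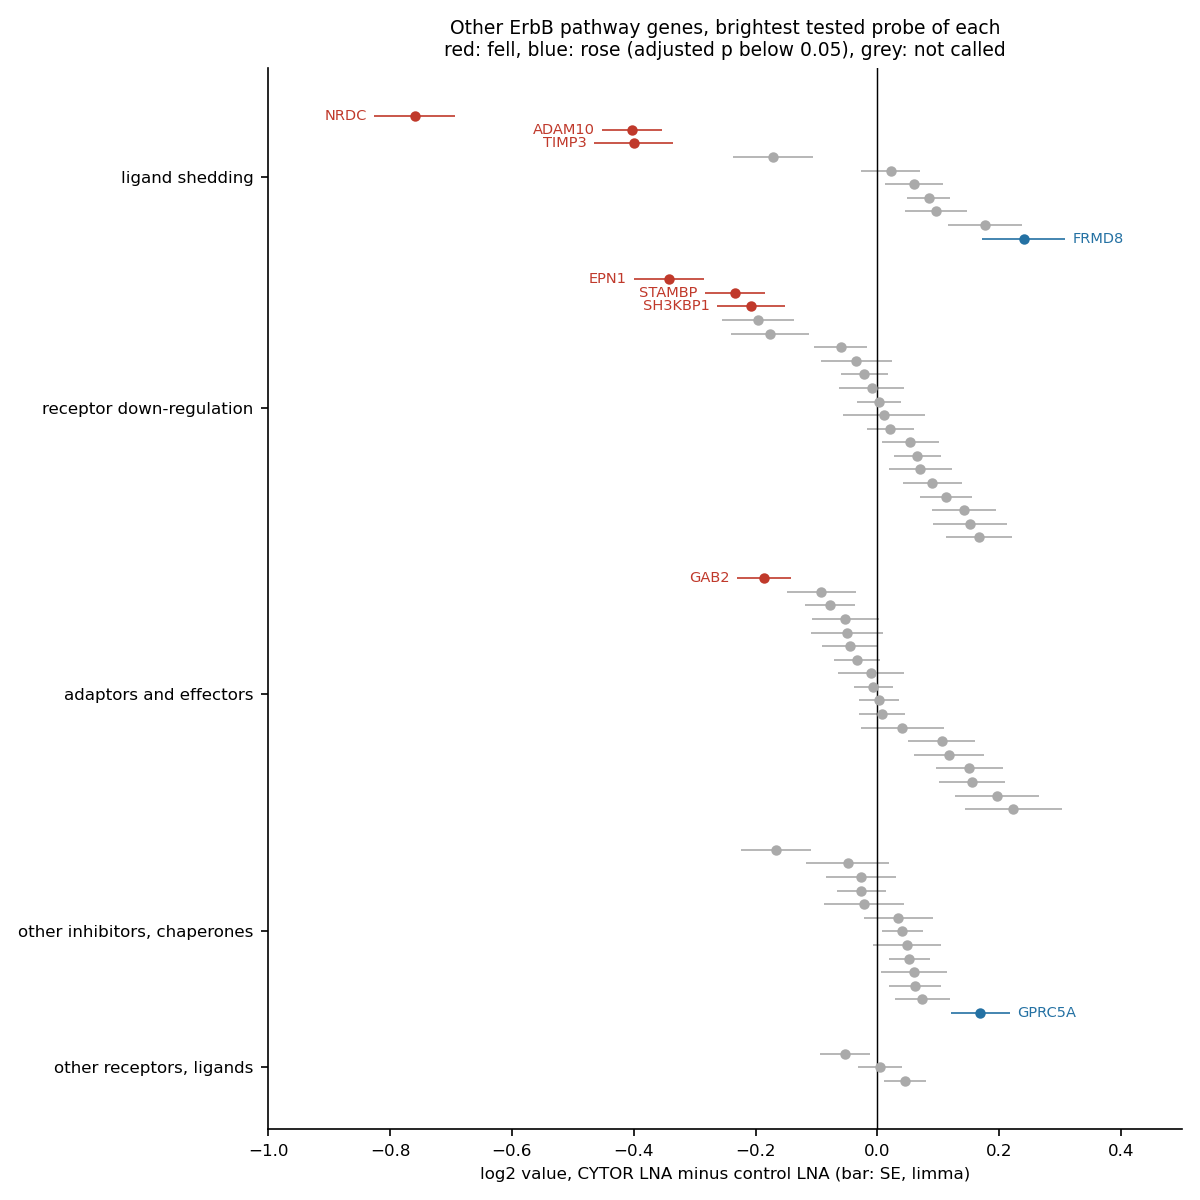
Each point is the difference of log2 values, CYTOR LNA minus control LNA (horizontal axis), at the brightest tested probe of 1 of 64 further ErbB pathway genes, sorted within 5 lists, with the SE from limma as a bar. The 7 genes that fell (red) and the 2 that rose (blue) are named, and NRDC stands farthest from 0.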

How the data were processed

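Total RNA of 12 MDA-MB-231 samples was hybridised to Illumina 1-colour bead arrays. The authors deposited 1 table of log2 values, made with lumi per the submitters' processing notes; version, transformation and normalization were not given in the sources used here. If the transformation compresses low values, folds at dim probes are understated. Of 48107 rows, 784 held no value. No detection p-values were used, so depth enters as level above the array median, and the number of arrays limits the precision.

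Probes were named through the platform annotation, updated by gene ID to RefSeq symbols (GRCh38.p14): 30113 had 1 symbol, 8 several and 17202 none. The 23662 probes (12714 genes) whose mean over 12 arrays reached the probe median were tested with limma 3.58.1 in R 4.3.3 (group and batch as terms, intensity trend, 9 residual degrees of freedom), with Benjamini-Hochberg adjustment over all of them at 0.05. Single probes were also tested by an exact 2-sided permutation of arrays (924 splits, or 224 within batches). The fit was tested on simulated data. Named were all ErbB member probes, CYTOR, every called gene of the 5 pathway lists, ERBB4, EGF, BTC, ADAM10 and ADAM17, and the 3 genes most like each called member. The members, lists and markers were chosen with earlier results of these data known. Promoters come from a RefSeq table; no probe or protein sequence was used here. Groups share replicate numbers, which were not taken to pair the samples.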

Additional observations from a re-analysis of the deposited data

How the results depend on the processing

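The 4 falls among the ErbB probes became 0 within batch 1, whose single CYTOR LNA array is assumed to vary like the others, and 2 to 5 when 1 array was left out, the 2 without control replicate 1 or 2; other settings gave 3 to 6, and none gave a rise. Both TGFA calls were lost only within batch 1 (adjusted p = 0.36 and 0.35) among 25 alternatives. HBEGF passed with no batch term (0.016), no intensity trend (0.024), among the brightest 30% of probes (0.048) and without CYTOR LNA replicate 6 (0.046), and ERRFI1 with no intensity trend (0.044). Of the other pathway genes, the 7 falls became 3 within batch 1. The 2 rises became 5 with no batch term, 1 with the replicate block, 0 with no filter, 7 within batch 1, 5 at an adjusted p below 0.10, and 0 to 5 with 1 array left out. The count of 0 differing probe pairs became 3 with dim probes admitted, 1 with no batch term, and 0 to 1 with 1 array left out. Signs turned for small differences: EGFR ILMN_1696521 (0.002) and ERBB2 (-0.186) within batch 1; LRIG1 ILMN_1707342 (0.012) and ERBB3 ILMN_1737993 (0.026) within batch 2, the latter also with array weights (0.01). With 1 array left out, ERBB3 ILMN_1737993 ran from -0.03 to 0.026, NRG1 ILMN_1844593 from -0.04 to 0.063, NRG1 ILMN_1811954 from -0.033 to 0.018 and LRIG1 ILMN_1707342 from -0.046 to 0.012. The cause was not tested. Same-numbered samples did not deviate together (r from -0.175 to 0.18; 1 of 6 correlated best with its own number); with the replicate block 3 ErbB probes fell and EGFR had an adjusted p of 0.076.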
